A study of Mus musculus with 6 samples.

Results

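The subject is the optic nerve of mice that lack leukemia inhibitory factor (LIF), compared between postnatal day 14 and postnatal day 35, the adult age. The members were chosen by genotype and age: the day 14 and the day 35 knockout array, 2 of the 6 arrays of the series. Both come from animals labelled LIF-/- with a CD1 background and male sex. The day 14 array holds RNA of 8 pooled nerves and the day 35 array RNA of 4. The nerves were not treated, their RNA was taken with TRIzol, and 500 ng was copied into biotin-labelled cRNA. CD1 wild-type nerves of the same ages, pooled in the same numbers, stand beside them for comparison, and a knockout array of day 10, from 10 nerves, is quoted as a further level. Each group is 1 array of 1 pool, so no difference here has a replicate, an error or a test. Every value below is a difference between single arrays.

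The optic nerve carries the axons of retinal ganglion cells, which oligodendrocytes wrap in myelin during the weeks after birth. Precursors of that lineage divide, leave the cell cycle, pass through a short newly formed stage and then become mature cells that maintain the sheath. LIF belongs to the interleukin-6 cytokines, which act through the shared receptor gp130 and the transcription factor STAT3, and astrocytes, microglia, vessels and connective sheath share the nerve with the oligodendrocytes.

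Expression was read on bead arrays, whose signal was corrected for background, quantile normalized over the 6 arrays and taken to log2. A difference is the normalized log2 signal at day 35 minus that at day 14, so that 1 unit is 2-fold. Raw signals are the deposited intensities. Folds, also those given as at least, are of normalized signal after background correction, so they can exceed the ratio of the raw signals. Detected means a detection p under 0.05. The day 14 arrays lay on slide 1 and the day 35 arrays on slide 2, in both genotypes, so age and slide cannot be told apart. On these slides the 18S control probe read 3060.6 at day 14 and 1575.5 at day 35 in the knockout, and 3670.5 and 1654.8 in wild-type nerve. Median signals were 51.8 and 55.3 on the knockout arrays, with 12524 and 12692 probes detected.

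The 2 knockout pools also differed in Y-linked genes and in markers of other tissues. The Y-linked genes Eif2s3y and Kdm5d had raw signals of 523.7 and 139.0 at day 14 and were at background at day 35, at 39.5 and 37.5, although both pools are labelled male. Of the 7 detected members of the sex chromosome list, these 2 alone were over 2-fold lower. None was over 2-fold higher, and the highest was Kdm5c at 0.69. On the wild-type arrays Eif2s3y stood at 701.5 and 72.3 and Kdm5d at 168.5 and 141.0, so the lower Eif2s3y signal at day 35 was seen in both genotypes. Skeletal muscle genes were far higher at day 35, the rod photoreceptor genes Sag and Gnat1 were detected at day 14 and not at day 35, and prolactin was detected at day 35. These values are given in full further on, and their part in the other differences was not tested. Neither array can be left out, because each is its whole group. Lif itself was near background on both, with raw signals of 56.0 and 60.7 and a difference of 0.01. Where its probe lies in the disrupted gene is unknown here, and its signal therefore says nothing of the genotype label.

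Of 24606 probes, 11425 were detected on both knockout arrays, 1267 at day 35 only, 1099 at day 14 only and 10815 on neither. Among the 11425, 786 probes (6.88%) were over 2-fold higher at day 35 and 683 (5.98%) over 2-fold lower. Differences over 2 log2 units numbered 123 higher and 48 lower, and those over 3 numbered 16 and 2. The wild type gave 575 higher (5.02%) and 524 lower (4.58%) of 11446, together 9.6% against 12.9% in the knockout. Higher probes made up 53.5% of the knockout's 2-fold differences, and 64.0% without normalization between arrays, 63.4% with arrays scaled to 1 median and 63.0% with cyclic loess. The standard deviation over probes was 0.705 in the knockout and 0.619 in wild-type nerve. It was 0.505 for the knockout between days 10 and 14, which share a slide and where 5.2% of 11989 probes passed 2-fold, 2.86% higher at day 14 and 2.34% lower. Gene names could be given to 8047 probes of 6656 genes. Of these genes 6569 were detected on at least 1 of the 2 knockout arrays, 467 (7.11%) over 2-fold higher and 478 (7.28%) lower, 14.4% in all, with a median of -0.08. In the wild type the shares were 6.02% higher and 5.84% lower, 11.9% in all, with a median of -0.03. The counts of gene lists below are to be read against these shares. In bulk tissue, fewer cells of a type and less RNA per cell cannot be told apart.

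**Figure D1:**
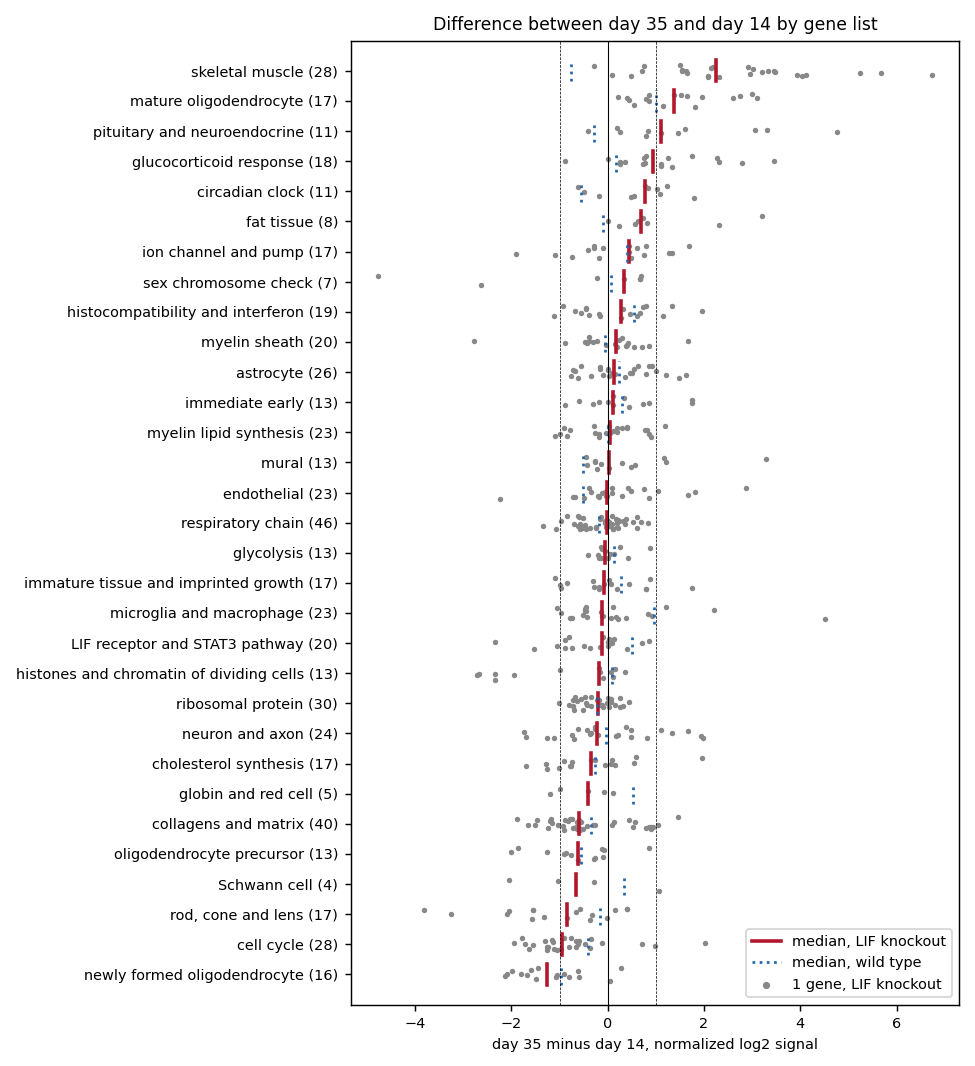
Difference between day 35 and day 14 in normalized log2 signal (horizontal axis) for 31 gene lists, with the number of detected members in brackets. Grey points are single genes in the LIF knockout, red bars the knockout median, dotted blue bars the wild-type median, and dashed lines mark 2-fold. Skeletal muscle (median 2.25) and mature oligodendrocyte genes (1.38) lie farthest to the right and newly formed oligodendrocyte genes (-1.26) farthest to the left.

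In the oligodendrocyte lineage, genes of mature cells were higher at day 35 and genes of newly formed cells lower, while the structural proteins of myelin lay close to 0. Of the mature list, 17 of 17 detected members were above 0, 10 of them over 2-fold and none under -1, with a median of 1.38, against 1.01 in the wild type. All 17 were detected on both arrays. The newly formed list had 10 of 16 members over 2-fold lower, none over 2-fold higher, and a median of -1.26 (wild type -0.97). Precursor genes had a median of -0.61, with 3 of 13 over 2-fold lower, and the myelin sheath list a median of 0.18, with 1 of 20 over 2-fold in each direction.

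Hapln2, which links hyaluronan to proteoglycans at the node of Ranvier, had raw signals of 139.6 at day 14 and 1065.4 at day 35 in the knockout, and 144.5 and 859.2 in wild-type nerve. Its difference of 3.10 log2 units (8.55-fold) was the highest of the mature list and nearly that of the wild type, 3.03. Car2, carbonic anhydrase 2, which balances pH in myelin, went from 378.5 at day 14 to 3175.1 at day 35, a difference of 2.99 (2.46 in the wild type). Its dimmer probe gave 2.05. Trf, the iron carrier transferrin, stood at 3739.3 and 11006.5, a difference of 1.38. Apod, a lipid-binding apolipoprotein, stood at 3194.2 and 10104.0, a difference of 1.53. Ptgds, the synthase of prostaglandin D, had the lowest difference of the list, 0.21. In the knockout at day 10 the raw signals were 49.0 for Hapln2, 174.1 for Car2, 495.2 for Trf and 877.4 for Apod, below the day 14 level in each case.

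Klk6, a secreted protease of mature oligodendrocytes, set the genotypes apart within this list. It had raw signals of 326.5 and 1150.7 in the knockout, a difference of 1.81, and of 105.4 and 2431.0 in the wild type, a difference of 5.11. The knockout was thus higher at day 14 and lower at day 35. At day 10 Klk6 was at background in the knockout (45.3) and detected at 109.7 in the wild type.

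Among newly formed oligodendrocyte genes, Cemip2, a cell surface hyaluronidase, stood lowest. Its brighter probe read 1124.4 at day 14 and 289.0 at day 35 (-2.14), and its other probe 542.0 and 90.8 (-3.15), the lowest difference of any named probe detected on both arrays. Gpr17, a receptor that marks cells before they myelinate, stood at 2510.2 and 1010.9, a difference of -1.48. Tcf7l2, a transcription factor of the Wnt pathway, stood at 729.5 and 300.5, a difference of -1.44. Enpp6, a choline phosphodiesterase of newly formed cells, stood at 5579.8 and 3308.7 (-0.91), short of 2-fold. Bcas1, a myelin-associated protein used to mark early myelinating cells, was instead at 9607.6 and 14097.4 (0.28). Wild-type differences of these genes were -3.11 for the brighter Cemip2 probe, -1.33 for Gpr17, -1.51 for Tcf7l2, -0.42 for Enpp6 and 0.33 for Bcas1.

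Pdgfra, the growth factor receptor of precursors, had nearly the same level at both ages, 1033.1 and 1042.1 (-0.10). Cspg4, the NG2 proteoglycan, stood at 119.9 and 112.5 (-0.27). Matn4, a matrilin that links matrix fibres, stood at 1601.4 and 436.9, a difference of -2.0, against -1.07 in the wild type. The list's highest value, 0.85, belonged to Olig2, a transcription factor of the lineage, which was detected at day 35 only, at a dim 78.6, at least 1.8-fold higher. The day 10 level of Pdgfra was 2272.9, over 2 times that of day 14.

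Of the myelin proteins, Mbp, myelin basic protein, was the brightest probe at day 35 (16900.4 and 20640.5), so that its difference of 0.16 is set by its rank. Mag, the myelin-associated glycoprotein of the innermost wrap, stood at 18305.1 and 14716.3 (-0.47), the former being the brightest signal of the day 14 array. Mog, a glycoprotein of the outer sheath, stood at 3771.0 and 5307.4 (0.41). The extremes were axon contact molecules. Cntn2, the adhesion molecule TAG-1 beside the node, stood at 1229.4 and 4090.6 (1.66), and Nfasc, neurofascin, which holds node and paranode together, at 498.3 and 102.6 (-2.78). In the wild type these 2 genes gave 1.39 and -1.71.

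**Figure D2:**
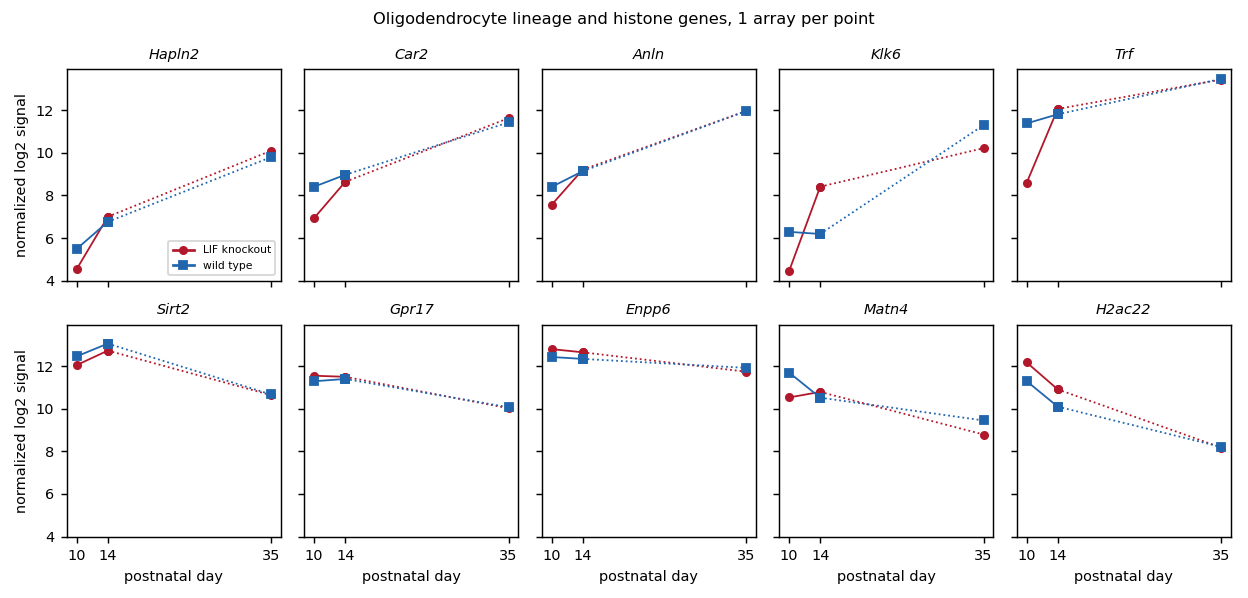
Normalized log2 signal (vertical axis) at postnatal days 10, 14 and 35 (horizontal axis) for 10 genes, with 1 array per point, red circles for LIF knockout and blue squares for wild type. Solid lines join arrays of the same slide and dotted lines cross between slides. Hapln2, Car2, Anln, Klk6 and Trf end higher at day 35, and Sirt2, Gpr17, Enpp6, Matn4 and H2ac22 lower, in both genotypes.

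Hapln2 and Bcan are both on chromosome 3, close to each other in GRCm38.p6, yet differed in opposite directions. Bcan encodes brevican, a proteoglycan of the hyaluronan matrix. Its probes stood at 2114.7 and 966.3 (-1.27) and at 917.4 and 186.1 (-2.59). In the wild type they gave -1.97 and -2.67. The promoters of both genes, 250 bases before to 50 after the annotated start, are shown to set these neighbours side by side, from RefSeq (GRCm38.p6). Hapln2 lies at chr3:88027462-88027761, minus strand, and Bcan at chr3:88000307-88000606, minus strand. Capitals mark CCAAT, searched on both strands, which occurred 1 time in each and occurs in 37.41% of all 32851 promoters of this length. TATAAA, searched likewise, was in neither window.
Hapln2: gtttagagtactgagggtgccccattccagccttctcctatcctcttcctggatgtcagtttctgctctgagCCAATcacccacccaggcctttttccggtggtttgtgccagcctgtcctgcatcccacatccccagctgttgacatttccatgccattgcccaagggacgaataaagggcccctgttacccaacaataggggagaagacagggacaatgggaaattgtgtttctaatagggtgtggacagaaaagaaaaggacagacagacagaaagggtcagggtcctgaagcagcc
Bcan: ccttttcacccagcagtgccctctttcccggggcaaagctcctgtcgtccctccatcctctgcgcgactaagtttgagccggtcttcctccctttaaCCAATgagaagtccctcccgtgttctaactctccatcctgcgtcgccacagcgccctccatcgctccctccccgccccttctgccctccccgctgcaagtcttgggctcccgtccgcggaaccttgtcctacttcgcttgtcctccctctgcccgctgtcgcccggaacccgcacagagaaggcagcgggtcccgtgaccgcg

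Genes of lipid synthesis, which supplies the sheath, lay on both sides of 0. Cholesterol synthesis genes had a median of -0.34 (wild type -0.26), with 4 of 17 over 2-fold lower and 1 higher. Mvd, which makes the isoprenoid building block from mevalonate, stood at 451.5 and 167.7, the lowest of the list at -1.70. Sqle, squalene epoxidase, stood at 2441.4 and 2633.1 (-0.05), and Idi1, which isomerizes that building block, at 331.9 and 365.3 (0.07, against -1.13 in the wild type). Insig1, which holds back the activation of cholesterol synthesis, was the highest at 74.2 and 229.7 (1.95, wild type 1.40). Genes of the other myelin lipids had a median of 0.05, with 1 of 23 over 2-fold in each direction. Ugt8a, which makes galactosylceramide, and Fa2h, which hydroxylates its fatty acid, stood at 0.19 and 0.41. Gal3st1, which turns galactosylceramide into sulfatide, and Fasn, fatty acid synthase, stood at -0.90 and -0.78. The extremes were also the only members past 2-fold. The lower was Gamt, the last enzyme of creatine synthesis and so not a lipid gene, at 2954.1 and 1472.2 (-1.1). The higher was Smpd1, the acid sphingomyelinase, at 162.4 and 358.8 (1.20).

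Genes of cell division were lower at day 35. The list had 25 of 28 detected members below 0, 13 over 2-fold lower and 1 higher, and a median of -0.94 against -0.41 in the wild type. Of the 28, 17 were detected on both arrays and 11 at day 14 only, so these 11 could only be lower. Top2a, the topoisomerase of dividing cells, had raw signals of 156.8, 79.9 and 53.5 at days 10, 14 and 35, and was not detected at the last, at least 2.14-fold lower. Mcm6, a subunit of the replication helicase, stood at 103.9 and at 45.8, which was not above background, at least 3.1-fold lower, while the wild type had 151.7 and 275.1 (1.21). Pcna, the sliding clamp of DNA polymerase, went the other way at 335.6 and 665.6 (0.99). Stmn1, stathmin, which takes microtubules apart and is also found in nerve cells, was the highest at 1810.7 and 7778.1 (2.02, wild type 1.15). Ccnd1, cyclin D1, gave -1.31, -1.52, -1.73 and -2.51 on its 4 probes, the brightest first, against -0.39, 0.12, 0.05 and -0.73 in the wild type.

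Replication-dependent histone genes, which are transcribed during DNA synthesis, included 5 of the 15 lowest named differences, all H2A genes. H2ac22 had raw signals of 5280.3 at day 10, 1713.2 at day 14 and 297.6 at day 35, a difference of -2.72 from day 14 (6.60-fold), against -1.89 in the wild type. H2ac10 stood at 1355.1 and 242.8 (-2.67), and H2ac13 at 1955.8 and 380.8 (-2.51). H2ac23 stood at 1500.1 and 332.7 (-2.35), and H2ac12 at 484.6 and 125.7 (-2.34). In each of the 5 the knockout was higher than the wild type at day 14, and the differences exceeded those of the wild type by 0.79 to 1.1. The H2A genes are near-identical copies, so these probes may read the same transcripts and cannot be counted as separate genes. The wider list of histones and chromatin genes had a median of -0.19, with 5 of 13 over 2-fold lower. Its highest member was Dek, a chromatin protein, at 0.37.

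The promoters of the 3 H2A genes with the lowest differences are shown because their differences were alike. H2ac22 lies at chr13:21787199-21787498, minus strand. H2ac10 lies at chr13:23533625-23533924, plus strand, and H2ac13 at chr13:21716162-21716461, plus strand, all RefSeq, GRCm38.p6. Capitals mark CCAAT and TATAAA, both searched on both strands. CCAAT occurred 4, 2 and 4 times, and was present in 5 of 5 promoters of the named H2A genes. TATAAA was present in 2 of the 5 (H2ac22 and H2ac12), against 13.62% of all promoters. Compared position by position, without shifting the windows, the 3 sequences shared 22% to 28.7% of their bases. This count misses stretches that lie at different positions, so it does not measure how alike the promoters are. The stretch atgtctggacgcgg was in all 3 windows. In each it lies past the annotated start and opens with the start codon atg. It reads as the beginning of the H2A coding sequence and is not counted as a shared promoter element. The stretches CCAATcaaaacaagg and ctccgttttcgcg were in the windows of H2ac10 and H2ac13.
H2ac22: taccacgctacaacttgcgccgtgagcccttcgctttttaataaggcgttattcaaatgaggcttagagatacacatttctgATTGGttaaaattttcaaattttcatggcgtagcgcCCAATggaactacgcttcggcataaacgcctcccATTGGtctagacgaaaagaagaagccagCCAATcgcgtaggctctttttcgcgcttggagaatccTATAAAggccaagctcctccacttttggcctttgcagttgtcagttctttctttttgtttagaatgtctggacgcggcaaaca
H2ac10: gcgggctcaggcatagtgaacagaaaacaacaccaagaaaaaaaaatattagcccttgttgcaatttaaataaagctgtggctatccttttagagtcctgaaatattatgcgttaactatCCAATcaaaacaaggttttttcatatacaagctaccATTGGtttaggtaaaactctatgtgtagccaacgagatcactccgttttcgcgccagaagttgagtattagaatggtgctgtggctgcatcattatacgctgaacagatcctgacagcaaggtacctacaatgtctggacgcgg
H2ac13: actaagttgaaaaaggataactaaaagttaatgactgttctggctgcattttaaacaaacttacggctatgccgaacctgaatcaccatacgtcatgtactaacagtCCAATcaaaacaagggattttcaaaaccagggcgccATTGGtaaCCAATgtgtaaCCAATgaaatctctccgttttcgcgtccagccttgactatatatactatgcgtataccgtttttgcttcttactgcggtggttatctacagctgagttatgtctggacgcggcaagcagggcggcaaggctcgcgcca

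Astrocyte genes had a median of 0.13 (wild type 0.24), with 3 of 26 over 2-fold higher and none lower. Gfap, the intermediate filament of astrocytes, was the highest at 599.8 and 1911.1 (1.63, wild type 2.38). Gja1, the gap junction protein connexin 43, stood at 6166.1 and 11158.3 (0.62). Aqp4, the water channel of astrocyte endfeet, stood at 3612.4 and 3679.6 (-0.10). Slc1a3, a glutamate transporter, was at -0.55, and Id3, an inhibitor of differentiation factors, was the lowest at -0.76.

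Microglia and macrophage genes were near their day 14 level in the knockout and above it in the wild type. The knockout median was -0.11, with 3 of 23 over 2-fold higher and 1 lower, while the wild type had a median of 0.96 and 10 of 22 over 2-fold higher. C1qa, C1qb and C1qc, the chains of complement C1q, gave -0.75, 0.22 and 0.18 in the knockout and 0.65, 1.21 and 1.68 in wild-type nerve. The levels at day 14 were higher in the knockout for each of them, 316.0, 455.2 and 392.0 against 249.6, 298.1 and 246.3. Fcgr3, an antibody receptor of macrophages, stood at 347.0 and 189.3 (-1.06), and at 255.1 and 519.1 in the wild type (1.33). Fcer1g, the signalling chain of such receptors, had raw signals of 261.5, 35.9 and 473.8 at days 10, 14 and 35. It was at background at day 14, so the difference is at least 18.1-fold, while on the wild-type arrays of the same ages it was not detected.

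Histocompatibility and interferon genes had a median of 0.28 (wild type 0.54), with 3 of 19 over 2-fold higher and 1 lower. H2-D1, a class I molecule, was the highest at 195.6 and 718.5 (1.96), while in the wild type it stood at 239.4 and 57.2 (-2.59) and at day 10 in the knockout at 41.3. H2-K1, also of class I, stood at -0.45 and B2m, the light chain of class I, at 0.68. Cd74, the invariant chain of class II, stood at 0.80 and H2-Ab1, a class II chain, at -1.12.

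Genes of the LIF receptor and STAT3 pathway had a median of -0.12 in the knockout and 0.51 in wild-type nerve, with 3 of 20 over 2-fold lower and none higher in the knockout, and 3 higher and none lower in the wild type. Il6st, which encodes gp130, stood at 69.6 and 81.4 (0.13), and Stat3 at 1571.4 and 805.5 (-1.05, wild type 0.12). Serpina3n, an acute-phase protease inhibitor, was the lowest. It had raw signals of 674.5, 3044.2 and 663.2 at days 10, 14 and 35 in the knockout (-2.33 from day 14 to day 35), and of 772.7 and 2351.5 at days 14 and 35 in the wild type (1.78). Socs3, the feedback inhibitor of gp130, stood at 194.4 and 91.8 (-1.52) and in the wild type at 118.6 and 197.1 (1.12). Osmr, the oncostatin M receptor, stood at 242.9 and 160.6 (-0.81) and in the wild type at 153.8 and 399.1 (1.80). For these 3 genes the knockout was above the wild type at day 14 and below it at day 35. At day 10 it was below as well. The raw signals then were 674.5 against 2731.3 in the wild type for Serpina3n, 219.9 against 293.8 for Socs3 and 155.4 against 248.1 for Osmr. Only the day 14 pair thus had the knockout higher. Socs2, an inhibitor of growth hormone signalling, was the highest of the list at 0.86.

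Endothelial genes had a median of -0.01, with 4 of 23 over 2-fold higher and 1 lower. Cldn5, the tight junction protein of brain vessels, was the lowest at 1275.5 and 300.5 (-2.24, wild type -0.98). Pecam1 and Cdh5, adhesion molecules of endothelium, stood at 1.05 and -0.49. Slco1a4, an organic anion transporter of the blood-brain barrier, was at background at day 14 and at 217.9 at day 35, at least 7.36-fold higher (wild type 0.52 on the log2 scale). Mural genes had a median of 0.03 (wild type -0.52). Their highest member was Acta2, smooth muscle actin, at background at day 14 and at 232.5 at day 35, at least 8.24-fold higher (wild type -0.91 on the log2 scale). Pdgfrb, the receptor of pericytes, was the lowest at -0.44, and Tagln, a smooth muscle protein, stood at 0.56. Tpm2, a tropomyosin of smooth and skeletal muscle, gave 1.16 on its brighter probe and at least 12.3-fold on the other, so that muscle of either kind enters the mural list.

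Collagens and matrix genes were mostly lower, with a median of -0.59 (wild type -0.35), 28 of 40 below 0, 9 over 2-fold lower and 2 higher. Col1a1 and Col1a2, the chains of type I collagen, stood at 894.3 and 278.6 (-1.88) and at 260.9 and 139.1 (-1.18). Sparc, a matrix-binding glycoprotein, was at -0.65. Col3a1, of type III collagen, was instead at 923.0 and 1438.1 (0.56), and Ogn, a small proteoglycan, was the highest at 174.1 and 457.7 (1.46). The day 10 levels of Col1a1 and Col3a1 were 2613.0 and 5390.8. Of the Schwann cell list 4 members were measured, with a median of -0.66, 2 over 2-fold lower and 1 higher. In the wild type the median was 0.34, with 1 over 2-fold higher and 0 lower. Pmp22, a protein of peripheral myelin, stood at 1.07, and Gldn, gliomedin of peripheral nodes, was at least 3.95-fold lower (wild type 1.22).

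Neuron and axon genes had a median of -0.23, with 5 of 24 over 2-fold higher and 4 lower. Gap43, a growth cone protein, stood at 1447.7 and 962.5 (-0.69), and Tubb3, neuronal tubulin, at 77.4 and 72.5 (-0.36). Marcksl1, an actin regulator of growing processes, was the lowest at 3114.3 and 1042.7 (-1.73). Gad1, which makes the transmitter GABA, was the highest at 74.9 and 235.1 (1.97, wild type 1.46). Genes of immature tissue had a median of -0.07. Igf2, a fetal growth factor, was among the brightest probes at 16840.2 and 14572.3 (-0.31), Dlk1, a Notch ligand relative, stood at 0.80, Mest at 0.44, Gnas, a stimulatory G protein, at 1.76, and Sox11, a transcription factor of immature neurons, detected at day 14 only, at least 2.02-fold lower. Immediate early genes had a median of 0.12, with Fos, Egr1 and Jun at -0.17, -0.31 and -0.60, Junb the lowest at -0.88, and Dusp1, a phosphatase of MAP kinases, the highest at 1.75.

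Ion channel and pump genes had a median of 0.45 (wild type 0.40), with 3 of 17 over 2-fold higher and 2 lower. Hcn2, a pacemaker channel, was the highest at 772.2 and 2670.5 (1.69, wild type 1.34). Fxyd7, a regulator of the sodium pump, was the lowest, at 101.3 and at background at day 35, at least 3.0-fold lower (wild type 0.18 on the log2 scale). Kcna1, a potassium channel beside the paranode, stood at -0.29. Lists of general metabolism lay near 0. The respiratory chain had a median of -0.02, with 2 of 46 over 2-fold lower and none higher, glycolysis a median of -0.06 with 0 of 13 past 2-fold, and ribosomal proteins a median of -0.20 with 1 of 30 lower. Their extremes were Atp5e, a subunit of ATP synthase, at -1.35, Sdhd, of succinate dehydrogenase, at 0.83, Pfkp, a phosphofructokinase, at 0.87, Pkm, pyruvate kinase, at -0.41, and the ribosomal proteins Rpl10a at -1.01 and Rps27 at 0.44.

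Skeletal muscle genes had the highest median of the lists, 2.25, against -0.76 in the wild type. Of 28 detected members 23 were over 2-fold higher and none over 2-fold lower. Of these 28, 14 were detected at day 35 only, which leaves them no other direction, and the 14 detected on both arrays gave a median of 1.95 above that of all named genes, against 2.33 for the 28. With an offset of 50 in place of 16, the 28 gave 1.49. Acta1, skeletal muscle actin, had raw signals of 1700.3, 42.5 and 2419.0 at days 10, 14 and 35 in the knockout and 1426.2, 339.0 and 61.0 in wild-type nerve. The knockout was thus at background at day 14, and the difference to day 35 is at least 93.8-fold. Atp2a1, the calcium pump of fast fibres, had 778.7, 68.2 and 2434.4 in the knockout (5.67 from day 14 to day 35) and 747.2, 441.9 and 82.9 in wild-type nerve (-2.74).

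Myh4, the myosin of the fastest fibres, was at background at days 10 and 14 and at 719.3 at day 35, at least 28.25-fold higher. Ckm, muscle creatine kinase, was at 34.5, which is background, and 172.8, at least 5.83-fold higher. The troponins Tnni2, Tnnc2 and Tnnt3, which place calcium control on the thin filament, gave 4.12, 3.93 and 3.01, and Tcap, a cap protein of titin, 2.95. Pvalb, parvalbumin, a calcium buffer of fast fibres and of some neurons, gave 4.03 (141.4 and 2059.5). Cox6a2, a muscle form of a respiratory subunit, and Rpl3l, a muscle form of a ribosomal protein, were at least 11.0-fold and 10.8-fold higher. Tnnt1, the troponin of slow fibres, was the lowest of the list at -0.29 (91.7 and 87.4). In the knockout Acta1 and Atp2a1 were thus low at day 14 between higher levels at days 10 and 35, while in the wild type both stood lower at each later age. Myh4 had no such higher level at day 10, and Tnnt1 none at day 35.

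The Acta1 promoter, which carries known control elements of muscle genes, is shown for the gene with the largest bound. It lies at chr8:123894726-123895025, minus strand (RefSeq, GRCm38.p6). Capitals mark a CArG box, the binding motif of serum response factor, and TATAAA, each found 1 time in a search of both strands. A CArG box was in 1.63% of all promoters and in 2 of the 22 muscle list members with a promoter in the table (Acta1 and Myh4), and TATAAA in 6 of the 22.
Acta1: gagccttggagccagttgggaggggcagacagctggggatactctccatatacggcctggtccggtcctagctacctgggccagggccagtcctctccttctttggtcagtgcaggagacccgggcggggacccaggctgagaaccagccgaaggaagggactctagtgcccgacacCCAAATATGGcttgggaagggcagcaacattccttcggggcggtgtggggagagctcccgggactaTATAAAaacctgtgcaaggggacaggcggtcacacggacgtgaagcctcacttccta

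Genes of the eye and of the pituitary region also differed between the pools. Sag, the arrestin of rods, stood at 308.4 at day 14 and at background (44.1) at day 35, at least 10.9-fold lower. Gnat1, rod transducin, stood at 215.0 and 43.6, at least 7.38-fold lower, and Pde6g, of the rod phosphodiesterase, at 108.9 and 43.0, at least 3.27-fold lower. In the wild type Sag was at 70.4 and 77.4. The rod, cone and lens list had a median of -0.84, with 8 of 17 over 2-fold lower and none higher. Of the 17, 10 were detected at day 14 only, and the 7 detected on both arrays gave a median of 0.07 relative to all named genes. The highest member was Rlbp1, a retinal-binding protein of glia and pigment cells, at 0.41.

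Several hormone genes were higher at day 35 in the knockout. Prl, prolactin, was at background at day 14 (38.6) and at 574.6 at day 35, at least 22.2-fold higher, and at 50.5 and 83.0 in the wild type. Gh, growth hormone, was at 40.4 and 202.0, at least 7.04-fold higher, with 39.7 and 197.7 in the wild type. Cga, the shared chain of pituitary glycoprotein hormones, was at 49.6 and 76.2, against 630.1 and 50.8 in the wild type. Avp, vasopressin, made in the hypothalamus, stood at 74.7 and 616.4 (3.50, wild type 2.09). Cartpt, a neuropeptide precursor, had 1577.2, 115.5 and 987.8 at days 10, 14 and 35 (3.31 from day 14 to day 35, wild type -2.01). The list's knockout median was 1.1, with 6 of 11 over 2-fold higher, 5 of the 11 detected at day 35 only, and Chga, chromogranin A, the lowest. In the wild type the median was -0.29, with 5 of 12 detected members over 2-fold higher and 6 lower. The knockout median relative to all named genes was 1.17, and 0.50 in the authors' deposited table.

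In fat tissue genes the defining members were at background on both arrays, with Adipoq, adiponectin, at 49.1 and 48.8, Ucp1, the uncoupling protein of brown fat, at 42.9 and 36.3, and Cidec at 39.5 and 40.5. The 8 detected members had a median of 0.69, and the highest, Cox8b, at least 9.24-fold higher, is also on the muscle list. Globin and red cell genes had a median of -0.41, with Hba-a1, alpha globin, at 2489.0 and 2643.5 (-0.07), Hbb-b2 at 0.11 and Alas2, of heme synthesis, the lowest at -1.19.

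**Figure D3:**
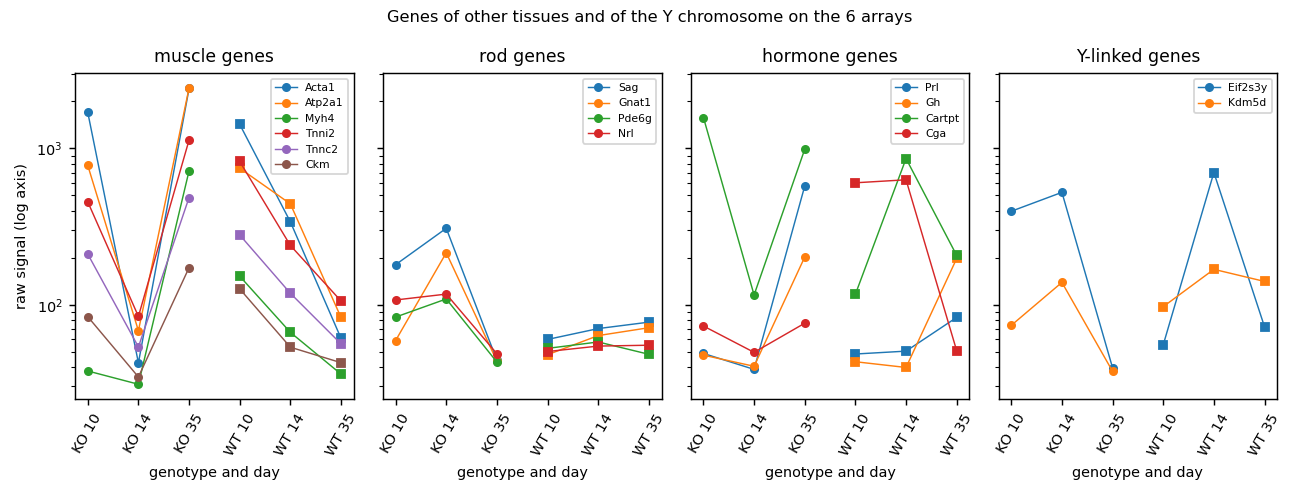
Raw signal on a log axis (vertical) on the 6 arrays (horizontal, genotype and postnatal day, KO for LIF knockout and WT for wild type) for genes of muscle, rods, hormones and the Y chromosome, with 1 array per point and lines joining the ages of a genotype. In the knockout the muscle genes shown are lowest at day 14, with Myh4 at background at day 10 as well, the rod genes drop to background at day 35, Prl and Gh appear at day 35, and both Y-linked genes are at background at day 35.

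Glucocorticoid response genes, a set switched on by the adrenal steroid receptor, were higher at day 35 in the knockout. Of 18 detected members 17 were above 0, 9 over 2-fold higher and none lower, with a median of 0.95. In the wild type the median was 0.18, with 2 over 2-fold higher and 3 lower. Sgk1, a kinase that acts on ion transport, gave the highest difference of any named probe detected on both arrays. Its dimmer probe had raw signals of 81.5, 58.0 and 2882.0 at days 10, 14 and 35 (6.31 from day 14 to day 35), and its brighter probe 1981.8, 1349.0 and 9906.8 (2.78). In the wild type the dimmer probe gave 1.89 and the brighter 0.35, so the probes disagree in size and have the same sign.

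Pdk4, a kinase that turns metabolism from glucose to fat, was the highest of the list by brightest probe, at 118.2 and 1107.1 (3.45, wild type 1.22). Tsc22d3, an anti-inflammatory target also called GILZ, stood at 52.5 and 168.0 (2.27, wild type 0.71). Fkbp5, a chaperone partner of the receptor, stood at 320.8 and 540.5 (0.73, wild type -0.62). Zbtb16, a zinc finger factor, was at background at day 14 and at 85.7 at day 35, at least 2.28-fold higher. Lcn2, lipocalin 2, was the lowest at -0.88.

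The Sgk1 promoter is shown because the search for a glucocorticoid receptor motif found it there and in no other of the 16 list members with a promoter in the table. The motif was AGAACA, then any 3 bases, then TGT, on both strands, present in 0.41% of all promoters. This window, 1 of 6 annotated for Sgk1, lies at chr10:21993640-21993939, plus strand (RefSeq, GRCm38.p6). Capitals mark 2 overlapping matches, 1 on each strand. A match of letters is a description and not evidence of binding.
Sgk1: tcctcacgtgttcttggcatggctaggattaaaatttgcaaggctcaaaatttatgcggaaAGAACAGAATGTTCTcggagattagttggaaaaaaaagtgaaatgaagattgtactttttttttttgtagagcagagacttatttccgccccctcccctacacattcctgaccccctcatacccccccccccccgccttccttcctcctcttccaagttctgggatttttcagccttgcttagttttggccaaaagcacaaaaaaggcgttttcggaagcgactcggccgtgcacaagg

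Circadian clock genes had a median of 0.77 in the knockout and -0.55 in wild-type nerve, with 4 of 11 over 2-fold higher and none lower in the knockout. Per1, Per2 and Per3, the period repressors of the clock, gave 0.77, 1.24 and 0.55, against -1.38, -0.55 and -0.86 in the wild type. The raw signals of Per2 were 272.2 and 636.9 in the knockout and 329.5 and 208.1 in wild-type nerve. Nr1d2, a nuclear receptor of the clock, was the highest at 166.7 and 539.4 (1.79, wild type 0.30). Arntl, the activator BMAL1, whose rhythm runs opposite to that of the period genes, was the lowest at 125.6 and 98.7 (-0.61, wild type 0.39). No hour of dissection is given in the labels. The E-box CACGTG was in a promoter of 2 of 9 clock genes (Per1 and Tef), and in 7.15% of all single promoters. A gene with several promoters has more chances of a match, so the 2 shares are not alike.

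**Figure D4:**
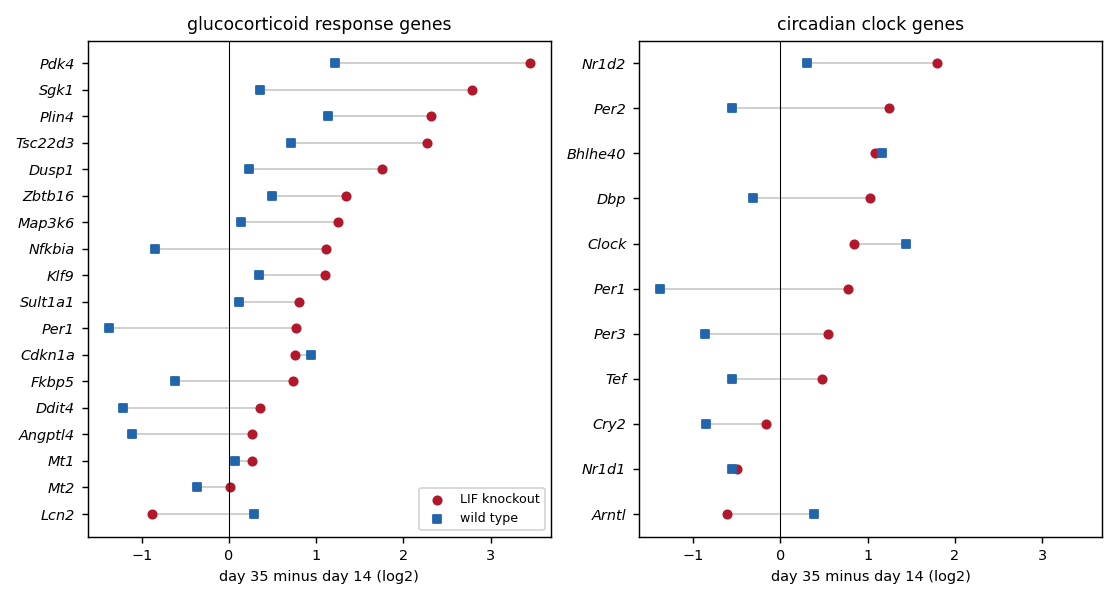
Difference between day 35 and day 14 in log2 signal (horizontal axis) for each detected gene of the glucocorticoid response list (left) and the circadian clock list (right), with red circles for LIF knockout, blue squares for wild type and grey lines joining the same gene. Per1, Per2, Per3, Nfkbia and Fkbp5 are among the genes that lie above 0 in the knockout and below 0 in the wild type.

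Several other named genes were higher at day 35 in both genotypes. Eif4a2, an RNA helicase of translation initiation, gave 3.54 on 1 probe and 1.18 on a brighter one, against 2.31 and 1.07 in the wild type. Fgf1, a fibroblast growth factor made by neurons and myelinated tissue, stood at 151.6 and 1340.1 (3.33, wild type 2.57), with 2.03 on its dimmer probe. Ifit3, an interferon-induced protein, gave 3.46 on a dim probe and 0.47 on a brighter one. Hnrnph1, a splicing factor, gave 1.44 to 2.96 over 4 probes. Gna12, a G protein subunit, was at background at day 14 and at 443.8 at day 35, at least 16.8-fold higher (wild type 2.23).

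Among the lowest, Onecut2, a homeobox transcription factor, stood at 293.4 and 65.3 (-2.94, wild type -3.04). Npb, neuropeptide B, stood at 429.5 and 95.7 (-2.69, wild type -3.32), and Etv4, a transcription factor of the ETS family, at 265.2 and 80.4 (-2.31, wild type -2.78). Il23a, a chain of interleukin 23, gave -2.77 (wild type -1.46), and Phlda1, a target of growth factor signalling, -2.40 (wild type -1.49). Detected at day 14 only were Rnf122, a ubiquitin ligase, at least 7.56-fold lower, St8sia3, a sialyltransferase of nerve tissue, at least 7.45-fold, and Prnd, the prion-like protein doppel, at least 4.31-fold. On the wild-type arrays Rnf122 stood at 284.7 and 59.6 and St8sia3 at 268.2 and 59.4, while Prnd stood at 168.8 and was at background at day 35 there too.

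Most probes past 2-fold in the knockout had the same sign in the wild type, and fewer passed 2-fold there. On the 10899 probes detected on all 4 arrays, 769 were over 2-fold higher in the knockout and 543 in wild-type nerve. The 287 in common made up 37.3% of the knockout's and 52.9% of the wild type's, and 13 of the 769 were over 2-fold lower in the wild type. Of all probes detected on both wild-type arrays, 5.02% were over 2-fold higher and 4.58% lower. Of the 769, 715 had the same sign in the wild type, with a wild-type median of 0.86. The share of same-sign probes among all 10899 was not counted. Of the 673 lower in the knockout, 261 were also over 2-fold lower in the wild type, 38.8% of them and 51.6% of the wild type's 506. Both genotypes cross from slide 1 to slide 2, so shared differences and slide cannot be told apart.

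The knockout difference exceeded the wild-type difference by over 1 log2 unit on 363 probes and fell short of it by over 1 on 309 (626 and 163 without normalization between arrays), with a standard deviation of 0.546. Among named probes detected on all 4 arrays, the largest excesses were mostly of muscle genes, Atp2a1 at 8.40, Tnni2 at 5.36, Tnnc2 at 5.32, Pvalb at 3.76 and Tcap at 3.68, with Cartpt at 5.32, H2-D1 at 4.54 and Sgk1 at 4.42 on its dimmer probe. The largest shortfalls among the same probes were Serpina3n at -4.11, Klk6 at -3.30, S100a4, a calcium-binding protein of motile cells, at -3.21, and Cela1, an elastase, at -3.00. Next came Fbxw5, of a ubiquitin ligase, at -2.87, Moxd1, a monooxygenase relative, at -2.65, Socs3 at -2.64 and Osmr at -2.60. S100a4 had raw signals of 529.7, 1083.6 and 274.2 at days 10, 14 and 35 in the knockout and 2129.0, 614.4 and 1108.3 in wild-type nerve. The knockout thus had its highest of 3 values at the age where the wild type had its lowest.

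**Figure D5:**
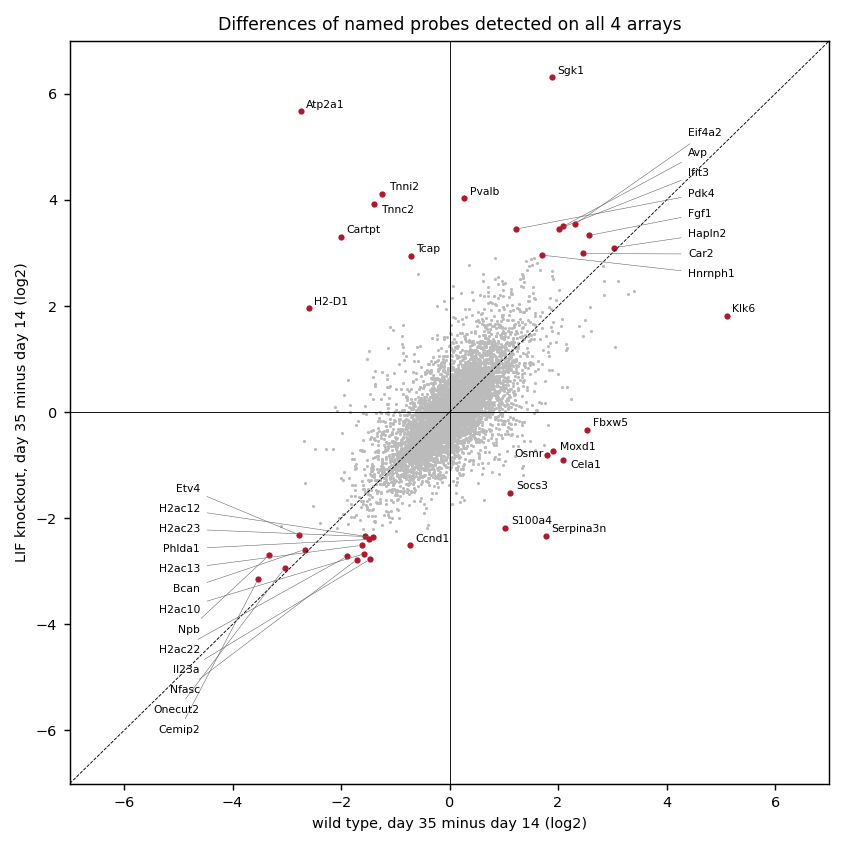
Difference between day 35 and day 14 in the LIF knockout (vertical axis, log2) against that in the wild type (horizontal axis, log2), with 1 point per named probe detected on all 4 arrays and red points for the genes named by rule. Points on the dashed line have equal differences. Atp2a1, Tnni2, Tnnc2, Cartpt and H2-D1 lie above 0 in the knockout and below 0 in the wild type, and Serpina3n, S100a4 and Socs3 the other way round.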

How the data were processed

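Expression was measured on Illumina MouseRef-8 bead arrays, read in 1 colour. Per the file headers, the deposited per-array files hold the mean bead intensity of each probe on a linear scale, exported from BeadStudio 1.5.0.34 without normalization. The deposited files also hold a detection score, a fraction from 0 to 1, and 1 minus it was taken as the detection p-value. A series table that the authors deposited holds intensities multiplied by 1 factor per array, with 15646 of 24613 probes blank for reasons not stated. Each array file lists 24611 probes, of which 5 control rows were dropped.

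Gene names come from the deposited table's identifiers, linked to a file row where the intensities matched within 0.05 signal units. Of the table's probes 8934 were linked to 1 row, 20 to none, and 2 rows shared by several probes were left out; 8047 linked probes had 1 gene symbol, 887 had none, and 0 symbols were updated. The gene number inside the design identifier equalled that of the linked gene for 97.1% of 3182 probes. No genome of the array design's build was used, and promoters come from RefSeq tables of GRCm38.p6. In motif counts over list members, a gene matched if any of its annotated promoters did. The shares of all promoters are of single promoters.

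Intensities were background-corrected by normexp (limma 3.58.1, R 4.3.3, offset 16, with negative controls modelled through the detection p-values), quantile normalized over 6 arrays and taken to log2. The script was checked on simulated data. With 1 array per group there was no test, and the number of arrays limits the precision. A difference counts as past the threshold when it exceeds 1 log2 unit (2-fold) on probes detected (p under 0.05) on both arrays. Where 1 array was at background, the fold is given as at least a bound from normalized signals. It is the brighter signal over the higher of the dim probe's own signal and the lowest detected signal of that array. Such a bound holds for the reported processing only and can exceed the ratio of the raw signals. Bounds were not run under the alternatives. In lists, a gene is represented by its linked probe with the highest mean log2 signal, and members detected on at least 1 of the 2 arrays are counted.

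The members and the 31 gene lists (829 genes) were chosen with earlier results of these data known. The rule named the 15 highest and 15 lowest differences, the 8 largest bounds each way, the 8 largest gaps to the wild type each way, the genes written first in each list with its extremes, the sex chromosome genes and Lif. Of the sex chromosome genes, only Eif2s3y, Kdm5d and Kdm5c are given by name. Other genes named were chosen after their values were seen. Alternatives were other normalizations, no background correction, an offset of 50, a detection p under 0.01, no filter, the authors' deposited table, the knockout arrays normalized alone, and other rules for list members and probes.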

Additional observations from a re-analysis of the deposited data

Results flagged for a closer look

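In the results below the knockout and the wild type differed in opposite directions between day 14 and day 35, each by more than 2-fold for single genes. With 1 pool in each group the difference between genotypes was not tested. Acta1, Rpl3l, Cox8b, Tpm2, Mcm6 and Gldn were at background on 1 of the knockout arrays, and their bounds are smaller than or equal to the measured differences given here. Tnnt3, Rpl3l and Tpm2 were at background in the wild type at day 35, so their wild-type values are differences against a signal that was not detected. Many of these results concern muscle genes, and the skeletal muscle list had a knockout median of 2.25 and a wild-type median of -0.76. Acta1 stood at 6.73 and -3.00, Atp2a1 at 5.67 and -2.74, and Tnni2 at 4.12 and -1.24. Tnnc2 stood at 3.93 and -1.39, Tnnt3 at 3.01 and -1.91, and Rpl3l at 3.75 and -1.43. Cox8b, which fat and muscle both express, stood at 3.21 and -1.22, and the dimmer probe of Tpm2 at 3.75 and -1.48.

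Higher in the knockout and lower in the wild type were also Cartpt, at 3.31 and -2.01, and H2-D1, at 1.96 and -2.59. Lower in the knockout and higher in the wild type were genes of the STAT3 response, with Serpina3n at -2.33 and 1.78 and Socs3 at -1.52 and 1.12. In the same direction stood S100a4 at -2.18 and 1.03, Fcgr3 at -1.06 and 1.33, Mcm6 at -1.94 and 1.21, and Gldn at -2.05 and 1.22.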

How the results depend on the processing

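No paired analysis was possible because each group is 1 array. For the same reason no replicate or doubted pool could be left out, and age and slide cannot be told apart under any alternative. The causes of the moves below were not tested, beyond the deposited table holding fewer probes. Over the alternatives run, 299 of 310 list medians kept their sign and 305 stayed within 1.5-fold of the reported value. Most of these medians are themselves smaller than 1.5-fold, so this limit says little of them. Of 210 differences of named genes, 183 stayed within 1.5-fold and all 210 kept their sign. Of the 96 gaps between the knockout and wild-type differences of named genes, 25 moved by over 1.5-fold and all 96 kept their sign. These differences and gaps were picked as the largest in the reported processing of the same arrays. Their kept signs were therefore nearly fixed in advance and are no support. In the authors' deposited table the gap of Atp2a1, 8.40 as reported, was 6.87, that of Tnnc2, 5.32, was 3.55, and that of Tcap, 3.68, was 2.48. The median of all named genes lay between -0.10 and 0.01. The probes over 2-fold lower, 683 as reported, were 392 without background correction. Higher and lower probes were 522 and 350 with an offset of 50, and 347 and 267 in the authors' deposited table. The probes with a knockout difference over 2-fold above and below the wild type's, 363 and 309 as reported, were 626 and 163 without normalization between arrays, 214 and 160 without background correction, 202 and 153 with an offset of 50, and 157 and 101 in the authors' deposited table. Relative to all named genes, the skeletal muscle median, 2.33 as reported, was 1.70 without background correction, 1.49 with an offset of 50 and 1.68 in the authors' deposited table. The pituitary median, 1.17, was 0.50 in the authors' deposited table. Medians counted as within 1.5-fold could also shrink. The cell cycle median, -0.86, was -0.49 with an offset of 50 and -0.44 in the authors' deposited table. The precursor median, -0.53, was -0.27 and -0.23 under the same settings. The rod, cone and lens median, -0.76, was 0.07 over members detected on both arrays. Dim probes near background limit what can be read from small differences.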
